A study of Mus musculus with 4 samples.

Results

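Parp9, Dtx3l, Parp14, Parp10 and Parp12 are genes of protein ADP-ribosylation that interferon is known to induce, and Parp1 is a member of the same enzyme family that is not counted among the interferon-induced genes. These 6 genes were chosen by name, out of 12584 genes in the table, and their UMI counts (each UMI marks 1 captured probe pair) were followed through the immune cells of mouse melanomas. The tumours were grown from YUMM1.7 OVA RTT, a mouse melanoma line that carries the model antigen ovalbumin and is resistant to targeted therapy, in Rag2-/- mice, which have no T or B cells of their own. OT-1 CD8+ T cells, whose receptor recognises ovalbumin, were transferred on day 7 (adoptive cell transfer, ACT), and CD45+ cells were sorted on day 10, 72 h after ACT. Each library pooled 3 tumours before sorting, so every group had 1 library and no replicate.

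The CTRL library came from tumours of a line carrying empty vectors with mCherry and puromycin resistance. The IRF3/7 library came from tumours of a bulk-sorted line in which the SFFV promoter drove Irf3, with mCherry, and Irf7, with puromycin resistance. Irf3 and Irf7 encode transcription factors that switch on type I interferon genes. In the COX2i library the mCherry line was treated with celecoxib, an inhibitor of the prostaglandin-producing enzyme COX2. In the COX2i + 5-AZA library it received celecoxib and 5-azacytidine, an inhibitor of DNA methylation. OT-1 transfer and the Rag2-/- host were shared by all 4 groups.

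PARP enzymes use NAD to attach ADP-ribose to proteins or nucleic acids, either as single units or, for PARP1, as long chains laid down at DNA breaks. Interferons bind receptors that signal through JAK kinases and STAT proteins, and STAT complexes switch on interferon-stimulated genes at the DNA elements called ISRE and GAS. PARP9 pairs with the ubiquitin ligase DTX3L, PARP14 and PARP10 transfer single ADP-ribose units, and PARP12 is a zinc-finger mono-ADP-ribosyltransferase with antiviral activity.

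In the GRCm38 build (GENCODE M21 annotation), Parp14 (ENSMUSG00000034422) lay at chr16:35832874-35871544 on the minus strand, Dtx3l (ENSMUSG00000049502) at chr16:35926511-35939151 on the minus strand and Parp9 (ENSMUSG00000022906) at chr16:35938470-35972605 on the plus strand. These 3 genes covered 139732 bases, with 54966 bases between Parp14 and Dtx3l. The spans of Dtx3l and Parp9 shared 682 bases, head to head, and the transcripts Parp9-201 and Dtx3l-201 started 140 bases apart. Probe positions were not used here, so whether a probe pair fell in the shared bases is unknown. Parp10 (ENSMUSG00000063268) lay at chr15:76231174-76243441 on the minus strand, Parp12 (ENSMUSG00000038507) at chr6:39086410-39118349 on the minus strand and Parp1 (ENSMUSG00000026496) at chr1:180568924-180601254 on the plus strand.

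RefSeq start-site windows (GRCm38.p6, 250 bases before to 50 after the start, 5′ to 3′ on the gene's strand) were at hand for Dtx3l (chr16:35938978-35939277, minus), Parp12 (chr6:39118300-39118599, minus) and Parp1 (chr1:180568641-180568940, plus), and are shown to set the members that were high in IRF3/7 beside the one that was low. Capitals mark the motifs searched, GAAACT, a piece of the ISRE, and TTC, any 4 bases and GAA, a STAT element with a longer spacer.
Dtx3l: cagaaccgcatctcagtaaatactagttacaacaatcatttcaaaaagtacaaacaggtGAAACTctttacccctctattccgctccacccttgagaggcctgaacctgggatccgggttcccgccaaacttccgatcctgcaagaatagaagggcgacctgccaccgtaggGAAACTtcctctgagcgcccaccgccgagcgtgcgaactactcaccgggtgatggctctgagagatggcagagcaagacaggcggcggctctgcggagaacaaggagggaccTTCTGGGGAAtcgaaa
Parp12: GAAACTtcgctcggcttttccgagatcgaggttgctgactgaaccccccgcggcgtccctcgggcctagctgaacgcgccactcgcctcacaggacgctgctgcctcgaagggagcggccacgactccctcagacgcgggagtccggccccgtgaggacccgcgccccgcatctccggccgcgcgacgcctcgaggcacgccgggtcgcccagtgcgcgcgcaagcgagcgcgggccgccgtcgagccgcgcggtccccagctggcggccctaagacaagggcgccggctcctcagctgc
Parp1: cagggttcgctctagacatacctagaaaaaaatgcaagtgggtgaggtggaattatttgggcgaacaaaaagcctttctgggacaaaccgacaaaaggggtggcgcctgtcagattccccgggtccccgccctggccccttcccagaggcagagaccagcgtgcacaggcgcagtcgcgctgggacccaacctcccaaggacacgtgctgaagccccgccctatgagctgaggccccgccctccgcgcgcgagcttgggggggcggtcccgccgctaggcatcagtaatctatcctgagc
GAAACT occurred at 2 places in the Dtx3l window (bases 60 to 65 and 173 to 178) and at 1 place in the Parp12 window (bases 1 to 6), searched on both strands, and 15.8% of all 32851 windows of this length held it. The element of TTC, any 4 bases and GAA occurred once in the Dtx3l window (bases 285 to 294) and in 6.95% of all windows. A full ISRE, read as GAAA, any 2 bases and GAAA (3.44% of windows), and a GAS, read as TTC, any 3 bases and GAA (8.30%), occurred in none of the 3 windows, and the motifs did not overlap in these windows. The Dtx3l window follows the RefSeq start at base 251, and Dtx3l-201 of GENCODE started 124 bases before it, at base 127, so the second GAAACT and the STAT element lay downstream of that start. It also contained the start of Parp9-201, on the opposite strand. A match is a run of letters and not a bound site.

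The table held 34447 cells in 17 classes named by the authors, of which 28828 cells in 9 classes were monocytes or macrophages. Libraries held 6329 to 10032 cells and 26356819 to 78722763 UMIs, with a median of 3168 UMIs per cell in IRF3/7 and 6039.5 to 7502 in the other libraries. The class names rest on clusters built from genes that include interferon genes, so a class set against the rest is no test. No full cell barcode was shared, but 4830 droplet barcodes (the first 16 bases) occurred in more than 1 library and covered 29.1% of cells. Without those cells the IRF3/7 log2 ratio to CTRL was 2.53 for Parp12 to 3.39 for Parp14 and -1.68 for Parp1. Over all cells, Irf7 stood at 62.1, 4964, 86.2 and 436 CPM (UMIs of the gene per 1000000 UMIs) in CTRL, IRF3/7, COX2i and COX2i + 5-AZA, and Irf3 at 41.6, 138, 43.2 and 42.4 CPM. Whether the probes read the vector's transcript, or tell it from the cell's own, was not examined. In monocytes and macrophages Irf3 stood at 43.0 CPM in CTRL and 44.6 CPM in IRF3/7, and Irf7 at 69.3 and 3170 CPM. Among monocytes and macrophages, IRF3/7 carried the highest summed monocyte markers (13333 CPM, against 845 to 2782 elsewhere, over the 4 of 5 markers in the table) and neutrophil markers (1209 against 48.6 to 549 CPM, 4 markers). It carried the lowest macrophage markers (12483 against 18105 to 43034 CPM, 5 markers) and non-immune markers (45.2 against 98.3 to 306 CPM, 5 of 6 markers). The part of this shift in the results below was not tested beyond the splits by class, and in summed counts fewer cells of a type and less RNA per cell cannot be told apart.

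In monocytes and macrophages, all 5 inducible members were higher in IRF3/7 than in CTRL, by 5.63-fold for Parp12 to 10.4-fold for Parp14, while Parp1 was lower in IRF3/7. COX2i + 5-AZA stood between, with values 2.17-fold to 3.42-fold those of CTRL. COX2i alone differed from CTRL by 1.22-fold to 1.51-fold. Since a group had 1 library, conditions could not be tested against replicate spread. The 95% intervals given (exact Poisson for a level, exact conditional for a ratio, exact Clopper-Pearson for a share) hold counting error alone and leave out the variation among tumours and preparations.

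Parp9, the catalytically weak partner of DTX3L, stood at 40.1 CPM in CTRL (interval 38.5 to 41.8), 257 CPM in IRF3/7 (249.6 to 265), 53.8 CPM in COX2i (52.0 to 55.7) and 104 CPM in COX2i + 5-AZA (102 to 107). Of the 4 libraries CTRL was lowest and IRF3/7 highest. The log2 ratio of IRF3/7 to CTRL was 2.68 (2.61 to 2.75). Against CTRL it was 0.42 (0.35 to 0.50) in COX2i and 1.38 (1.31 to 1.45) in COX2i + 5-AZA. Dtx3l, the ubiquitin ligase that binds PARP9, stood at 61.0 CPM in CTRL (59.0 to 63.1), 483 CPM in IRF3/7 (473 to 493), 92.1 CPM in COX2i (89.7 to 94.5) and 209 CPM in COX2i + 5-AZA (205 to 212). The order of libraries was that of Parp9. Its log2 ratio to CTRL was 2.99 (2.93 to 3.04) in IRF3/7, 0.59 (0.53 to 0.66) in COX2i and 1.77 (1.72 to 1.83) in COX2i + 5-AZA.

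Parp14, a large macrodomain protein that adds single ADP-ribose units, stood at 85.3 CPM in CTRL (82.9 to 87.8), 886 CPM in IRF3/7 (872 to 899.6), 111 CPM in COX2i (109 to 114) and 224 CPM in COX2i + 5-AZA (220.3 to 227). The step from COX2i + 5-AZA to IRF3/7 was the widest of any inducible member, with a log2 ratio of -1.98 for COX2i + 5-AZA against IRF3/7, compared with -1.21 to -1.43 for the other inducible members. Its log2 ratio to CTRL was 3.38 (3.33 to 3.42) in IRF3/7, 0.38 (0.33 to 0.44) in COX2i and 1.39 (1.34 to 1.44) in COX2i + 5-AZA.

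Parp10, another mono-ADP-ribosyltransferase, stood at 21.8 CPM in CTRL (20.6 to 23.1), 153 CPM in IRF3/7 (147 to 158), 26.6 CPM in COX2i (25.4 to 28.0) and 56.8 CPM in COX2i + 5-AZA (55.1 to 58.7). CTRL and COX2i were the lower pair and differed by a log2 ratio of 0.29 (0.18 to 0.40), the smallest COX2i difference of the inducible members. Parp10 was higher than in CTRL by log2 2.81 (2.71 to 2.90) in IRF3/7 and by log2 1.38 (1.29 to 1.48) in COX2i + 5-AZA. Parp12 stood at 72.7 CPM in CTRL (70.5 to 75.0), 409.6 CPM in IRF3/7 (400.2 to 419), 91.4 CPM in COX2i (89.0 to 93.8) and 158 CPM in COX2i + 5-AZA (155 to 161). It had the smallest IRF3/7 difference of the inducible members, a log2 ratio of 2.49 (2.44 to 2.55), and the smallest COX2i + 5-AZA difference, 1.12 (1.07 to 1.17) against CTRL. Its COX2i ratio to CTRL was 0.33 (0.27 to 0.39) on the log2 scale.

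Parp1 followed another order, at 202 CPM in CTRL (198 to 206), 61.8 CPM in IRF3/7 (58.2 to 65.6), 242 CPM in COX2i (238 to 246) and 140.2 CPM in COX2i + 5-AZA (137 to 143). COX2i was highest and IRF3/7 lowest, so the libraries ranked first and last for Parp1 were not those of the inducible members. The log2 ratio of IRF3/7 to CTRL was -1.71 (-1.80 to -1.62), that of COX2i was 0.26 (0.22 to 0.30) and that of COX2i + 5-AZA was -0.53 (-0.57 to -0.49). The median gene also sat at -0.55 in IRF3/7 against CTRL on this scale, and with median-of-ratios size factors which move every ratio of this comparison by 0.51, the ratio of Parp1 was -1.20. The same scaling moved ratios of COX2i + 5-AZA to CTRL and to COX2i by 0.16 and those to IRF3/7 by -0.35.

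**Figure D1:**
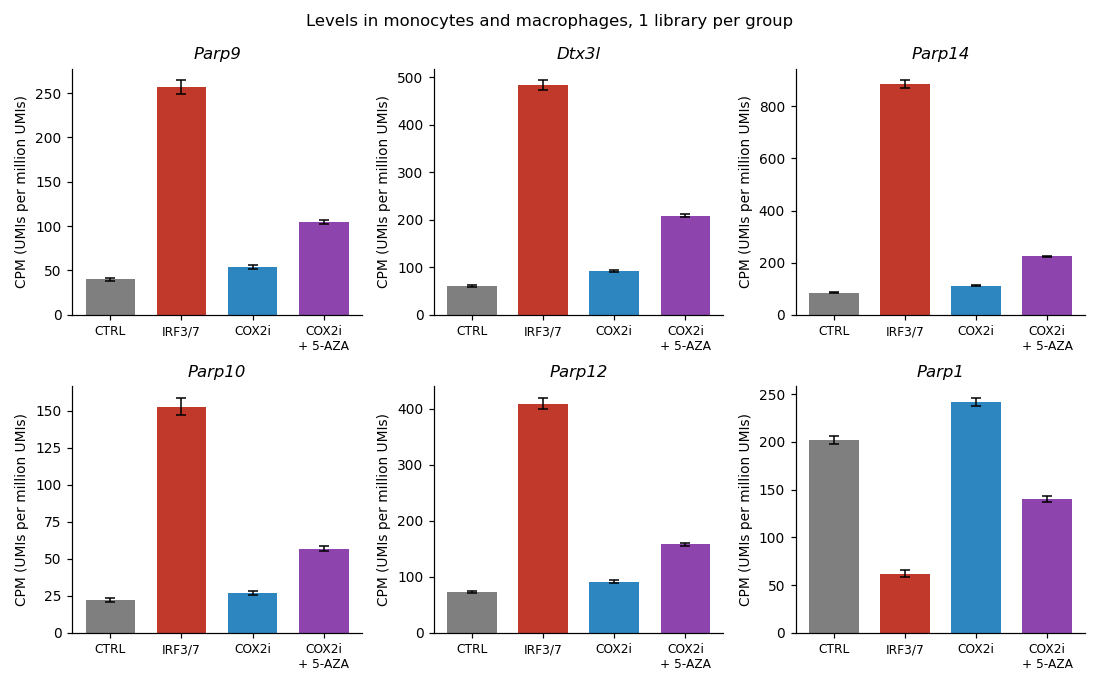
Summed level of each of the 6 genes in monocytes and macrophages of the 4 libraries, as bars in CPM, with exact Poisson 95% intervals for counting error and 1 library per group. The 5 inducible members run from CTRL up to IRF3/7 (Parp14 85.3 to 886 CPM), and Parp1 is lowest in IRF3/7 at 61.8 CPM.

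Counted at a fold of 2, the inducible members at least 2-fold higher in IRF3/7 than in CTRL were 5 of 5, where 9.16% of the 11793 genes tested were at least 2-fold higher and 32.2% at least 2-fold lower, Parp1 among the latter. In COX2i against CTRL 0 of 5 reached 2-fold, where 1.93% of genes were that much higher and 4.7% that much lower. For COX2i + 5-AZA against CTRL the count was 5 of 5, beside 5.65% of genes higher and 11.3% lower. These 3 comparisons share the CTRL library. Against COX2i, the COX2i + 5-AZA library held 3 of 5 members at least 2-fold higher, beside 6.16% of genes higher and 9.77% lower. Those 3 were Dtx3l at a log2 ratio of 1.18, Parp10 at 1.09 and Parp14 at 1.01, with Parp9 at 0.96 and Parp12 at 0.79 short of the mark. Against IRF3/7, 5 of 5 members were at least 2-fold lower in COX2i + 5-AZA, where 6.63% of genes were lower by that much and 20.8% higher. Parp1 was among the higher at a log2 ratio of 1.18, but stood at -0.026 with the shared classes weighted equally.

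The class mix of the monocytes and macrophages differed between libraries. Infl_Mono, the authors' inflammatory monocytes, made up 1.22% of these cells in CTRL, 86.1% in IRF3/7, 1.76% in COX2i and 8.68% in COX2i + 5-AZA. In CTRL, where Infl_Mono was a small class of 93 cells, all 5 inducible members were already highest in it among classes of at least 50 cells. Dtx3l stood at 363 CPM in CTRL Infl_Mono and at 109.9 CPM in cDC2, conventional dendritic cells and the next class. Parp14 stood at 603 CPM in CTRL Infl_Mono and 232 CPM in Macro, Parp9 at 204 against 78.7 CPM in Macro, and Parp12 at 376 against 107 CPM in Macro. Parp10 stood at 119.8 CPM in CTRL Infl_Mono and 38.9 CPM in Neutro, the neutrophils. Infl_Mono was set off from the next class by more than counting error for each of the 5. The authors' Myofibrobl class, where collagen and other non-immune markers summed to 6719 to 17292 CPM, was lowest for each. The share of all genes with this order is not given, and the class names rest in part on interferon genes.

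A split of each ratio by class mix showed how much of it came with the change in class shares. With CTRL's level in each class but the class shares (of UMIs) of IRF3/7, Parp14 would stand at 568 CPM, which is 2.74 of its 3.38 log2 units, and the remaining 0.64 lay within classes. The mix part for the other inducible members was 2.22 to 2.49 log2 units and the within-class part 0.27 for Parp12 to 0.50 for Dtx3l. For COX2i against CTRL the split ran the other way, with mix parts of 0.02 to 0.09 and within-class parts of 0.24 to 0.57, the largest for Dtx3l. For COX2i + 5-AZA against CTRL the mix parts were 0.88 to 1.57 and the within-class parts -0.18 for Parp14 to 0.60 for Dtx3l. This last split draws on CTRL classes under 50 cells, Monocyte_1 (44), TAM_H2Ab1 (19) and Monocyte_3 (2), which supply 53.5% of the mixed level for Parp12 to 68.9% for Parp14. Within the 8 single classes of at least 50 cells in both libraries Parp14 was above 0 in 7 and below 0 in none. Those 8 include cDC2, Myofibrobl and Neutro, which lie outside the split. Parp1 split into -0.90 from the mix and -0.81 within classes for IRF3/7 against CTRL. The split takes the class names as given, and CTRL's levels in the class that fills IRF3/7 rest on 93 cells, with 8.16% to 12.2% of the mixed level of the inducible members from its classes under 50 cells. With the shared classes weighted equally, 0 of 5 members reached 2-fold in IRF3/7 against CTRL, where Infl_Mono was the only shared class of monocytes and macrophages, and 0 of 5 in COX2i + 5-AZA against CTRL or against COX2i. The 5 of 5 at least 2-fold lower in COX2i + 5-AZA than in IRF3/7 also became 0 of 5 when their 3 shared classes were weighted equally, with log2 ratios of -0.35 for Dtx3l to -0.88 for Parp14. With Infl_Mono left out of both libraries, a choice made after the data were seen, all 5 inducible members stayed at least 2-fold higher in IRF3/7, with log2 ratios of 1.97 for Parp10, 2.20 for Parp12, 2.65 for Parp9, 2.72 for Parp14 and 2.85 for Dtx3l, and Parp1 stood at -0.64. In the macrophage classes alone, dominated in IRF3/7 by TAM_H2Ab1 (385 cells) and in CTRL by other macrophage classes, the 5 ratios were 1.89 to 2.95 and that of Parp1 was -0.44. The share of all genes past 2-fold is not given for these reduced cell sets or for equal class weights.

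**Figure D2:**
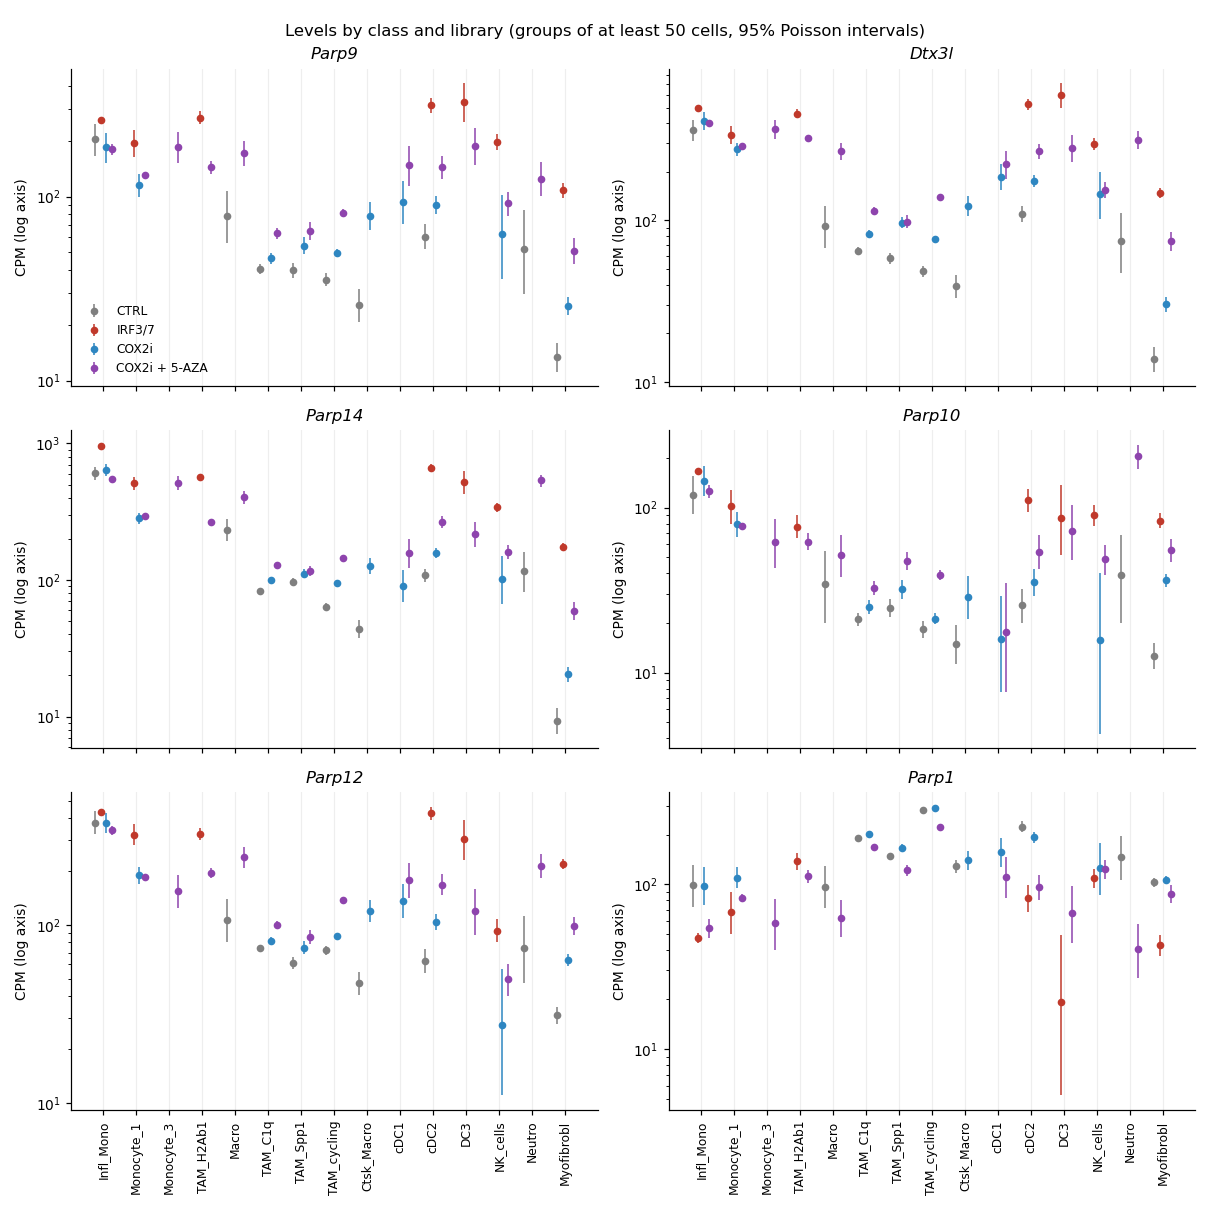
Level of each gene by class and library, in CPM, for classes with at least 50 cells in the library. In CTRL, Infl_Mono lies above the other classes for the 5 inducible members (Parp14 603 CPM) and Myofibrobl lies lowest (Parp14 9.34 CPM).

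Only Infl_Mono, cDC2 and Myofibrobl held at least 50 cells in both CTRL and IRF3/7. Within Infl_Mono the IRF3/7 excess was small. The log2 ratio was 0.67 (0.50 to 0.84) for Parp14, 0.48 for Parp10, 0.45 for Dtx3l and 0.35 (0.06 to 0.65) for Parp9. Parp12 stood at 0.19 (-0.02 to 0.41), an interval that reached 0 on a scale where the median gene of the class stood at -0.18. The cells of this class differed between the libraries in summed macrophage markers, 48333 CPM in CTRL and 9121 CPM in IRF3/7, and monocyte markers, 5937 and 15565 CPM. In cDC2, Parp12 stood at 62.8 CPM in CTRL and 425 CPM in IRF3/7, a log2 ratio of 2.76. Parp14 in cDC2 stood at 108 and 664 CPM, a ratio of 2.62, and Parp9 at 60.7 and 313 CPM, a ratio of 2.37. Dtx3l and Parp10 were higher in cDC2 by 2.25 and 2.12 log2 units. Summed monocyte markers in cDC2 moved with these values, from 1038 CPM in CTRL to 6657 CPM in IRF3/7, while the dendritic cell markers stood at 504 and 262 CPM. The part of these marker shifts in the class ratios was not tested. Parp1 was lower in IRF3/7 in all 3 classes, by log2 ratios of -1.07 in Infl_Mono, -1.44 in cDC2 and -1.27 in Myofibrobl. The median gene stood at -0.18, -0.29 and -0.29 in the same order of classes. The share of all gene and class pairs lying lower is not given. Over the 3 classes, 14 of 15 ratios of inducible members lay above 0 beyond counting error, where 14% of all gene and class pairs with at least 20 UMIs did, and 10 were at least 2-fold, where 7.2% of pairs were at least 2-fold higher.

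Myofibrobl held the widest ratios of the inducible members in IRF3/7 against CTRL, although the sort was for CD45+ cells. For Parp10 and Parp12 its interval overlapped that of cDC2. In Myofibrobl Parp14 stood at 9.34 CPM in CTRL, 175 CPM in IRF3/7, 20.4 CPM in COX2i and 59.7 CPM in COX2i + 5-AZA. IRF3/7 was 18.7-fold above CTRL, a log2 ratio of 4.23 (3.91 to 4.56), and both celecoxib libraries lay between. Dtx3l in Myofibrobl stood at 13.8, 148, 30.4 and 74.2 CPM in the same order of libraries, a log2 ratio of 3.43 for IRF3/7 against CTRL, with Parp9 at 3.01, Parp12 at 2.82 and Parp10 at 2.72. In this class Ptprc, the gene of CD45, stood at 26.9, 18.3, 37.4 and 34.5 CPM, summed monocyte markers at 63.7, 328, 111 and 185 CPM and summed macrophage markers at 2517, 254, 1939 and 987 CPM. Among the Myofibrobl cells with no Ptprc UMI (461, 134, 746 and 128 cells), a subset chosen after the data were seen, the Parp14 log2 ratio of IRF3/7 to CTRL was 5.17, from 4.36 and 157 CPM, while Parp9 at 3.04, Dtx3l at 3.64, Parp10 at 2.86 and Parp12 at 2.78 stood near their values in the whole class. Irf7 in the whole class stood at 8.20 CPM in CTRL, 14909.5 CPM in IRF3/7, 19.2 CPM in COX2i and 67.1 CPM in COX2i + 5-AZA. Irf3 there stood at 31.2, 584, 35.1 and 24.5 CPM in the same order.

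In COX2i against CTRL, 30 of 35 ratios of inducible members over 7 classes lay above 0 beyond counting error, none lay below, and 8 were at least 2-fold, where 21.5% of all gene and class pairs lay above 0 and 2.86% were at least 2-fold higher. For 4 of the 5 members the widest was in Ctsk_Macro, macrophages named for cathepsin K (157 and 380 cells), with log2 ratios of 1.65 for Dtx3l, 1.61 for Parp9, 1.54 for Parp14 and 1.34 for Parp12. Parp10 stood at 0.95 there and was widest in Myofibrobl, at 1.51. The macrophage markers of Ctsk_Macro summed to 9358 CPM in COX2i and 26964 CPM in CTRL, and the part of this shift in the ratios was not tested. The 5 ratios were 0.14 to 0.34 in TAM_C1q, the complement-expressing tumour macrophages. In Infl_Mono they were -0.14 to 0.28 and every interval spanned 0. Macrophage markers summed to 59464 CPM in CTRL and 29932.5 CPM in COX2i in TAM_C1q, and to 48333 and 16112.5 CPM in Infl_Mono. The part of these shifts in the ratios was not tested either. The COX2i + 5-AZA ratios to CTRL lay above 0 in 34 of 40 cases and below in none, and 22 were at least 2-fold, beside 17% and 5.02% of all pairs. TAM_cycling, the dividing macrophages, had ratios of 0.93 for Parp12 to 1.53 for Dtx3l. Its macrophage markers summed to 41040.5 CPM in CTRL and 22668 CPM in COX2i + 5-AZA and its monocyte markers to 342 and 579 CPM, and the part of this shift in the ratios was not tested. Neutro had ratios of 1.27 for Parp9 to 2.39 for Parp10. The 65 CTRL cells called Neutro carried more macrophage than neutrophil markers, 33355 and 24461 CPM, against 4439 and 89640 CPM in COX2i + 5-AZA, and the part of this was likewise not tested. Infl_Mono had the lowest, -0.18 to 0.14, every interval spanning 0. In COX2i + 5-AZA against COX2i, 27 of 45 ratios lay above 0, 1 below and 4 at least 2-fold, beside 13% of pairs above 0 and 4.2% at least 2-fold higher. Against IRF3/7, 34 of 35 lay below 0 and 13 were at least 2-fold lower, beside 14.7% and 4.79% of pairs. Summed monocyte markers were also lower than in IRF3/7 in each class compared. They stood at 2689 CPM in COX2i + 5-AZA and 6657 CPM in IRF3/7 in cDC2, and at 3490 and 6293 CPM in NK cells. The part of this shift was not tested.

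**Figure D3:**
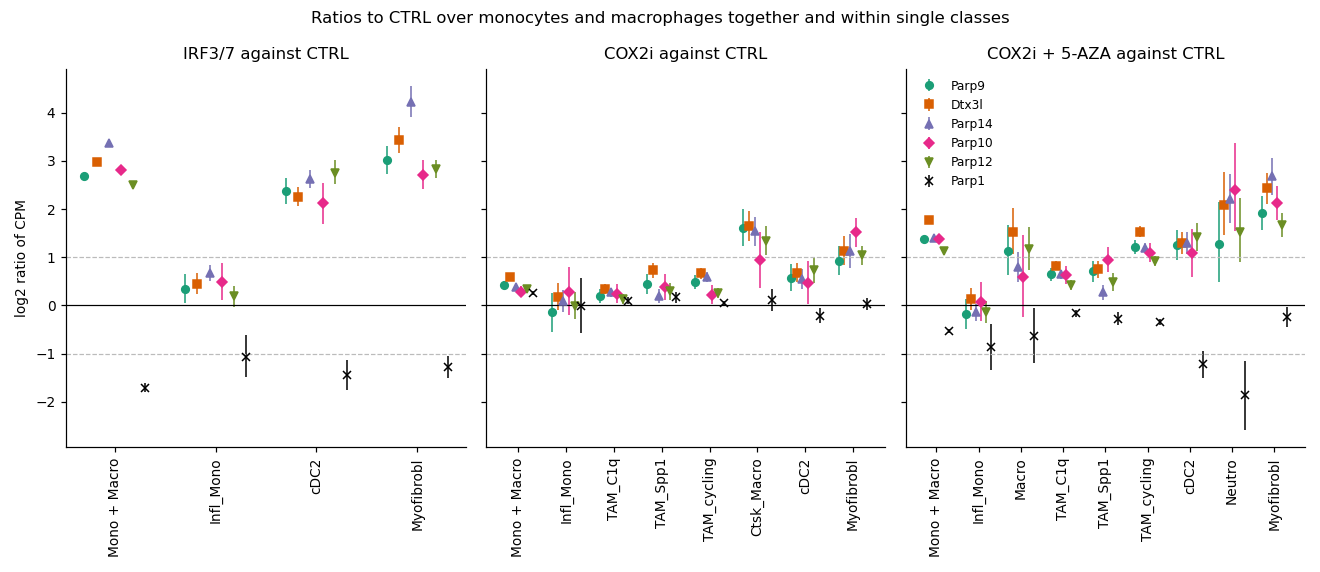
Log2 ratios of the 6 genes within single classes with at least 50 cells in both libraries, with exact conditional 95% intervals for counting error. Ratios of IRF3/7 to CTRL are smaller in Infl_Mono (inducible members 0.19 to 0.67, Parp1 -1.07) than in Myofibrobl (inducible members 2.72 to 4.23, Parp1 -1.27).

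Over the 40 groups of a class in a library with at least 50 cells, Parp14 had the widest range, from 9.34 CPM in CTRL Myofibrobl through a median of 159 to 961 CPM in IRF3/7 Infl_Mono, 103-fold. Parp9 ran from 13.4 through 92.8 to 327 CPM and Dtx3l from 13.8 through 165 to 596 CPM, both from CTRL Myofibrobl to IRF3/7 DC3, a dendritic cell class. DC3 and cDC2 of IRF3/7 did not differ beyond counting error for either gene. Parp10 ran from 12.7 through 48.0 to 204 CPM, the top being Neutro in COX2i + 5-AZA, and Parp12 from 27.4 CPM in NK cells of COX2i through 119.6 to 428 CPM in IRF3/7 Infl_Mono.

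Classes did not keep 1 order across the members. NK cells were lowest of the classes of at least 50 cells for Parp12 in each library that held enough of them, at 93.0 CPM in IRF3/7, 27.4 CPM in COX2i (50 cells, upper limit 56.5) and 49.6 CPM in COX2i + 5-AZA. In IRF3/7 those NK cells held Parp14 at 340.3 CPM and Dtx3l at 298 CPM, against 961 and 496 CPM in Infl_Mono. Dendritic cells of the cDC1 class held Parp10 at 15.9 CPM in COX2i and 17.7 CPM in COX2i + 5-AZA, while Dtx3l there was 186 and 223 CPM, above the library's TAM_C1q at 82.1 and 115 CPM. Parp10 in TAM_C1q was 25.0 and 32.6 CPM, with intervals that overlapped those of cDC1 (7.62 to 29.2 in COX2i and 7.64 to 34.9 in COX2i + 5-AZA).

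Shares of cells ran the same way as the levels. Each cell was thinned to 1000 UMIs, because depth differed between libraries (median 6259.5, 3148, 7611.5 and 6300 UMIs in monocytes and macrophages). At that depth at least 1 UMI of any inducible member was found in 23.1% of monocytes and macrophages in CTRL (22.1 to 24.1), 84.8% in IRF3/7, 31.2% in COX2i and 52.1% in COX2i + 5-AZA. At least 2 of the 5 members were found together in 3.66%, 50.3%, 5.99% and 17.2% of cells. A UMI of Parp14 was found in 8.07%, 54.3%, 10.9% and 21.9% of cells, and without thinning in 37.5%, 85.6%, 49.4% and 65.8%. Parp1 was found in 16.5%, 6.02%, 20.2% and 10.8% of thinned cells, and in 62.0%, 16.7%, 70.5% and 47.7% without thinning. No class here should lack these genes altogether, so free RNA could not be read from such a class, and the lowest share of Parp14 over class and library was 1.08% in CTRL Myofibrobl (median 15007.5 UMIs before thinning). Cells left out for depth numbered 1, 0, 2 and 4.

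Within monocytes and macrophages, Parp9 UMIs per Dtx3l UMI were 0.658 in CTRL (0.623 to 0.694), 0.532 in IRF3/7 (0.513 to 0.551), 0.585 in COX2i (0.560 to 0.610) and 0.500 in COX2i + 5-AZA (0.486 to 0.515). The ratio was highest in CTRL and lowest in COX2i + 5-AZA, so Dtx3l stood further above CTRL than Parp9 in each of the other libraries. Over the 40 groups it ran from 0.396 in Neutro of COX2i + 5-AZA through a median of 0.588 to 0.970 in CTRL Myofibrobl. The probes of each gene set the level of this ratio, so it is read only between groups.

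Across the 40 groups, on the log2(CPM + 1) scale, Parp9 and Dtx3l were each other's nearest gene among 11474 candidates, with Pearson r of 0.980. These groups share libraries and class structure, so r is a description. Next to Parp9 came Nlrc5 (0.962), Ifi35 (0.961), Phf11b (0.959) and Herc6 (0.957), and next to Dtx3l came Nlrc5 (0.967), Zbp1 (0.962) and Nmi (0.959). The genes nearest to Parp14 were Slfn8 (0.957), Oas3 (0.953), Zbp1 (0.950), Xaf1 (0.946) and Dtx3l (0.945). Parp10 lay nearest to Rsad2 (0.912), Isg15 (0.901), Ifit1 (0.898), Oasl2 (0.893) and Rnf213 (0.877). Parp12 lay nearest to Phf11d (0.929), Znfx1 (0.923), Stat2 (0.909), Parp11 (0.905) and Dhx58 (0.902). Parp9 had r of 0.937 with its neighbour Parp14, 0.849 with Parp12 and 0.768 with Parp10.

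**Figure D4:**
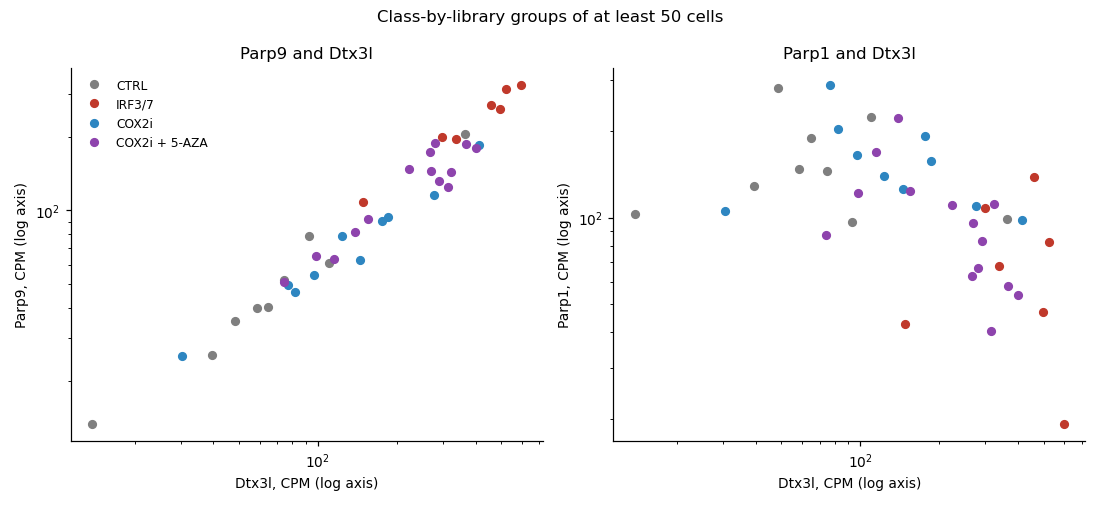
Each point is a class in a library with at least 50 cells (40 groups), with levels in CPM on log axes. Parp9 follows Dtx3l closely (r = 0.980), and Parp1 runs against it (r = -0.542 with Dtx3l).

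Parp1 lay nearest to Tmem109 (0.896), Gtf2h2 (0.841), Tmco1 (0.841), Siae (0.836) and Trmt2a (0.833), and its r with Parp9 was -0.580. With the dividing-cell genes Mki67 and Top2a its r was 0.617 and 0.518. By class it was highest in TAM_cycling in CTRL (282 CPM), COX2i (290.0 CPM) and COX2i + 5-AZA (223 CPM). TAM_cycling counted 1457, 20, 3164 and 1320 cells in CTRL, IRF3/7, COX2i and COX2i + 5-AZA. In IRF3/7, among classes with at least 50 cells, TAM_H2Ab1 was highest for Parp1, at 138 CPM, and DC3 had 19.2 CPM from 4 UMIs (5.24 to 49.3), not beyond counting error from Myofibrobl at 42.8 CPM. Within classes Parp1 was lower in COX2i + 5-AZA than in CTRL beyond counting error in 8 of 8, with log2 ratios from -0.17 in TAM_C1q to -1.86 in Neutro, where 25% of all gene and class pairs lay below 0. The median gene of a class stood at -0.08 in TAM_C1q and -0.36 in Neutro.

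The rest of the ADP-ribosylation machinery was read from lists of related genes, in monocytes and macrophages. Of the 11 other PARP family genes tested in IRF3/7 against CTRL, 4 were at least 2-fold higher and 1 at least 2-fold lower, beside 9.16% and 32.2% of all genes. Their median log2 ratio was 0.15, beside -0.55 for all genes and 2.81 for the inducible members. Those higher were Parp11 at 2.42, Zc3hav1, the zinc-finger antiviral protein, at 1.73, Tiparp, a target of the aryl hydrocarbon receptor, at 1.55, and Parp8 at 1.33. Parp16 stood at -3.81. The DNA-repair enzyme Parp2 stood at -0.15, the tankyrases Tnks and Tnks2 at 0.16 and -0.52, and Parp3, Parp4 and Parp6 at 0.15, 0.09 and -0.03. With COX2i + 5-AZA against CTRL the median of this list was 0.06, and of its genes only Parp11, at 1.29, was at least 2-fold higher, where 5.65% of all genes were. In COX2i against CTRL the median of this list was 0.08. No gene of it reached 2-fold in either direction there, beside 1.93% of all genes higher and 4.7% lower. DTX3L's relatives differed from it, with Dtx2 at 0.85, Dtx3 at -0.69 and Dtx4 at -2.93 in IRF3/7 against CTRL.

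The 10 genes of ADP-ribose removal had a median of -0.37 in IRF3/7 against CTRL, with 0 at least 2-fold higher and 4 at least 2-fold lower, beside a median of -0.55 and 32.2% of genes at least 2-fold lower over all genes. These 4 were Adprhl2 at -1.06, which clears ADP-ribose from serine, Nudt5 at -1.84, and the macrodomain hydrolases Macrod1 at -2.28 and Macrod2 at -2.36. Parg, which cuts ADP-ribose chains, stood at -0.26 and Oard1 at -0.16, with Nudt9 at -0.48, Nudt16 at 0.17, Adprh at 0.25 and Adprm at 0.81. Among 19 genes of NAD supply and use, 6 were at least 2-fold higher and 3 at least 2-fold lower in IRF3/7, beside 9.16% and 32.2% of all genes. The list was led by Ido1, which opens tryptophan breakdown, at 7.82, and Nnmt at 3.29, with Naprt at -1.92 and Qprt at -1.86 at the other end. In COX2i + 5-AZA against CTRL, 4 genes of this list were at least 2-fold higher and 1 lower, beside 5.65% and 11.3% of all genes, with Ido1 at 6.52, Nampt, the rate-limiting enzyme of NAD salvage, at 1.91, and Qprt at -2.87.

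Known interferon targets gave a scale for the members, beside all genes, of which 9.16% passed 2-fold upward against CTRL in IRF3/7, 1.93% in COX2i and 5.65% in COX2i + 5-AZA. In IRF3/7 against CTRL, 12 of 12 type I-skewed genes were at least 2-fold higher, with a median log2 ratio of 5.64, from Rtp4 at 4.12 to Slfn4 at 7.26. The 14 genes skewed to interferon-γ were all at least 2-fold higher too, with a median of 4.81, from H2-Ab1 at 1.58 to Tgtp1 at 7.39. The inducible members, at a median of 2.81, lay below both medians. In COX2i against CTRL the medians were 0.44 for type I-skewed genes (0 of 12 at least 2-fold higher), 1.704 for interferon-γ-skewed genes (10 of 14) and 0.38 for the members. In COX2i + 5-AZA against CTRL they were 2.53 (12 of 12), 4.27 (14 of 14) and 1.38. Against IRF3/7, COX2i + 5-AZA had medians of -3.20 for type I-skewed genes, -0.15 for interferon-γ-skewed genes and -1.37 for the members, which lay between. Of the 13 interferon signalling genes, 7 were at least 2-fold higher in IRF3/7 than in CTRL, beside the 9.16% of all genes, led by the inhibitors Usp18 at 5.56 and Socs1 at 5.09, while the receptor genes Ifnar1 and Ifngr1 stood at -0.56 and -0.48.

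Genes of base excision repair and of proliferation were read beside Parp1. Of 12 base excision repair genes, 0 were at least 2-fold higher and 4 at least 2-fold lower in IRF3/7 than in CTRL, close to the 32.2% of all genes, with a median of -0.86 beside -0.55 for all genes. Ung, which removes uracil from DNA, stood at -3.20, Apex1 at -2.03, Aplf at -1.80 and the flap nuclease Fen1 at -1.22. Of 10 proliferation genes, 9 were at least 2-fold lower, with a median of -2.60. In COX2i against CTRL, where Parp1 was at 0.26, the medians were 0.28 for repair and 0.84 for proliferation. In COX2i + 5-AZA against CTRL, where Parp1 was at -0.53, they were -0.12 and -0.28. No gene of either list reached 2-fold in either direction there, beside 5.65% of all genes higher and 11.3% lower.

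**Figure D5:**
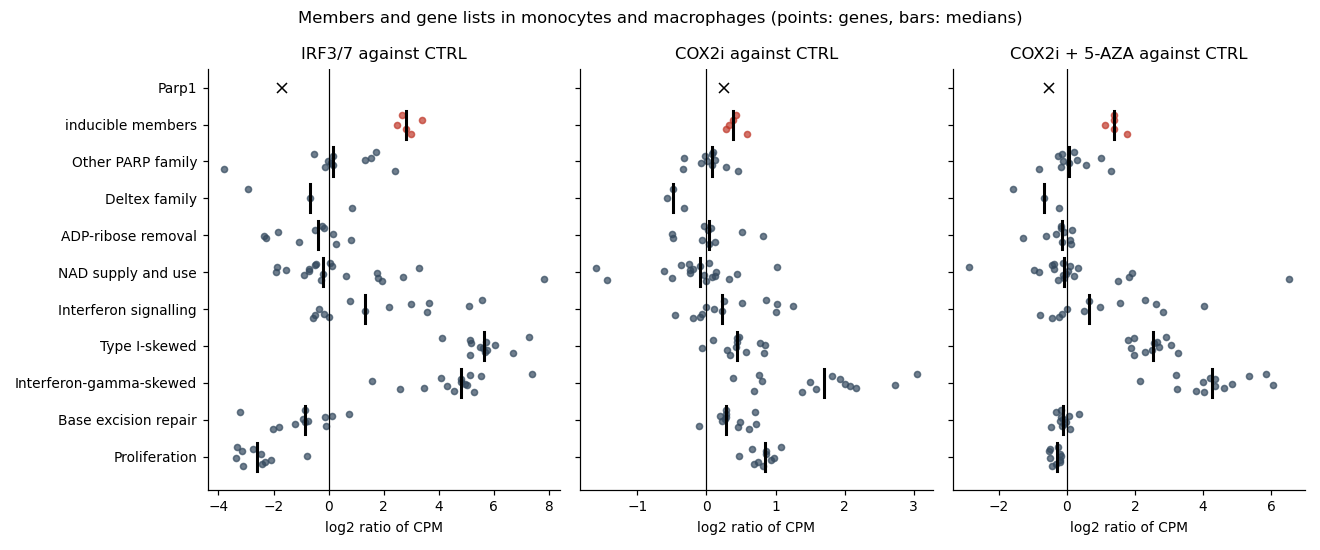
Log2 ratios of the members and of the genes of each list in monocytes and macrophages. In IRF3/7 against CTRL the inducible members (median 2.81) lie below the type I-skewed genes (median 5.64) and above the other PARP family genes (median 0.15).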

How the data were processed

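Single CD45+ cells were fixed for Chromium Flex, in which probe pairs read chosen stretches of each transcript. Per the labels, reads were processed with Cell Ranger 7.1.0 and the mm10 build, named in the submitters' processing notes. The authors deposited raw UMI counts per gene and cell, together with a class for each cell, annotated by them on an integration of several experiments after filters on genes, mitochondrial and ribosomal counts. Libraries held 26356819 to 78722763 UMIs. The deposited table leaves out ribosomal and mitochondrial genes and genes seen in few cells, so CPM is relative to the genes kept. Counts were summed over the cells of a class set and library and divided by total UMIs, as CPM. With 1 library per group no test was run and no p-value is given. Log2 ratios were taken for genes whose UMIs in the compared libraries summed to 20 or more, and class values for groups of at least 50 cells. A count of 3 UMIs, the floor set for a count of 0, was 0.0381 to 0.114 CPM. Python 3.11.15, numpy 2.4.6, scipy 1.17.1 and pandas 2.3.3 were used, and the scripts were tested on simulated data. No doublet caller was run, and leaving out the top 5% of cells by UMIs was an alternative. Gene spans came from GENCODE M21 on GRCm38 and start-site windows from RefSeq on GRCm38.p6.

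The members and lists were chosen with earlier results of these data known. Named genes were the 6 members, the 5 genes nearest to each by r over groups with at least 200 UMIs for the gene in all, and the list genes, singly for lists of 12 or fewer in IRF3/7 against CTRL and otherwise the 2 highest and 2 lowest or the range. Alternatives covered scaling, cell filters, thinning, class weights, cell sets, the UMI minimum and the fold. Ly6c2 and Mlana were not analysed here, and 1 gene among the 5 nearest to Dtx3l is not reported here.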

Additional observations from a re-analysis of the deposited data

Results flagged for a closer look

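Some members stood on opposite sides of the compared library in different classes, each beyond counting error. The differences between classes were not tested, since each rests on 1 library per group. For Parp1 in COX2i against CTRL, TAM_Spp1 had a log2 ratio of 0.16 (0.05 to 0.28) and cDC2 one of -0.21 (-0.38 to -0.05). Of the 7 classes 2 lay above 0 and 1 below, where 21.5% of all gene and class pairs lay above 0. For Parp14 in COX2i + 5-AZA against COX2i, Myofibrobl had a log2 ratio of 1.55 (1.26 to 1.84) and Infl_Mono one of -0.23 (-0.39 to -0.07). Of the 9 classes 6 lay above 0 and 1 below, where 13% of all pairs lay above 0. The median gene of Infl_Mono stood at -0.09. Its macrophage markers summed to 16112.5 CPM in COX2i and 6273 CPM in COX2i + 5-AZA, and the part of this shift in the ratio was not tested. For Parp1 in COX2i + 5-AZA against IRF3/7, DC3 had a log2 ratio of 1.80 (0.28 to 3.78) and TAM_H2Ab1 one of -0.31 (-0.52 to -0.09). The DC3 ratio rests on 66 cells of IRF3/7, where Parp1 stood at 19.2 CPM. Again 2 of 7 classes lay above 0 and 1 below, where 14.7% of all pairs lay below 0.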

How the results depend on the processing

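Of the recomputed counts of inducible members past 2-fold, 79 kept within 1.5 times the reported count and 11 did not. The count of members lower in COX2i + 5-AZA than in IRF3/7 was recomputed by a choice made after seeing the data. With classes weighted equally, the count was 0 in place of 5 for IRF3/7 against CTRL, where Infl_Mono alone was shared, 0 in place of 5 for COX2i + 5-AZA against CTRL, 0 in place of 3 against COX2i and 0 in place of 5 lower against IRF3/7. With macrophage classes alone, an alternative chosen after seeing the data, as were those without Infl_Mono and without shared droplets, it was 2 for COX2i + 5-AZA against CTRL and 0 against COX2i. A fold of 1.5 gave 1 member for COX2i against CTRL and 5 for COX2i + 5-AZA against COX2i. A fold of 3 gave 1 for COX2i + 5-AZA against CTRL, 0 against COX2i and 1 lower against IRF3/7, Parp14. For these alternatives the share of all genes passing the same mark is not given, so the counts have no background beside them. Of 330 recomputed log2 ratios of single members, 178 moved by more than counting error, 151 did not, and 1 changed sign, Parp1 in COX2i + 5-AZA against IRF3/7, at -0.026 with classes weighted equally in place of 1.18. The cause was not tested beyond the split by class. Over the alternatives the IRF3/7 ratio to CTRL ran from 0.67 to 3.89 for Parp14 and from 0.19 to 3.00 for Parp12, lowest with classes weighted equally and highest with size factors. No paired analysis was possible because each group had 1 library, and for the same reason no library could be left out. Intervals cover counting error only, and the spread between tumours was not measured.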

Other observations

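Groups under 50 cells stand outside the class-by-class ratios, though they enter the sums over monocytes and macrophages and the split by class mix. The 20 TAM_cycling cells of IRF3/7 held Parp14 at 354 CPM (266 to 461), Dtx3l at 275 CPM (198 to 372) and Parp1 at 301 CPM (220.5 to 402). The 49 neutrophils of IRF3/7 held Parp14 at 987 CPM (843 to 1148) and Parp1 at 35.2 CPM (12.9 to 76.7). The 44 Monocyte_1 cells of CTRL held Parp14 at 469 CPM (380.0 to 573), and the 19 TAM_H2Ab1 cells of CTRL held it at 443 CPM (332 to 580). The 38 cDC1 cells of IRF3/7 held Parp12 at 500.0 CPM (406 to 609), and the 16 cDC1 cells of CTRL at 87.1 CPM (39.8 to 165).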
